A study of Mus musculus with 8 samples.

Results

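Type I interferon response genes are the genes that cells switch on when interferon-alpha or interferon-beta reaches them. A list of 44 such mouse genes was followed here in CD4+ T cells of the neonatal liver. All 44 symbols were among the 52997 of the count table, and the 42 with at least 20 counts summed over the 8 libraries were kept. Just inside that limit lay Oasl1 with 22 and Ifit3b with 24 counts, and just outside it Oas1a with 19 counts, with Ifi44 at 5. After the filter on low counts, 40 of the 42 were tested, so Ifit3b and Oasl1 are described by their counts only. Membership rests on gene names and summed counts and not on any difference between groups, though the list was drawn up with earlier results of these libraries known. A gene can still reach the limit through the libraries of a single cell population, as Oasl1, Ifit3b, Ifi204 and Oas2 did.

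The 4 groups were PD-1+ cells of 10-day-old mice, PD-1+ cells of 5-day-old mice, PD-1- cells of 10-day-old mice and PD-1- cells of 5-day-old mice, with 2 libraries each. All mice were Aire-deficient C57BL/6 animals, labelled Aire- Foxp3 GFP+, so no group came from Aire-sufficient mice. Aire is the thymic epithelial regulator that lets developing T cells meet self antigens. The sorted cells were live CD45+ TCRb+ CD4+ cells without the Foxp3 reporter signal, 1000 cells per library, split by PD-1 on their surface, a receptor that restrains antigen-stimulated T cells. Replicate numbers were 1 and 2 at 10 days and 2 and 3 at 5 days, and pairs of values below follow that order. The labels name no animals, so each p-value measures the spread between these libraries, which may be technical. In bulk samples such as these, fewer cells of a kind and less RNA per cell cannot be told apart.

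Type I interferons bind a receptor made of Ifnar1 and Ifnar2. The kinases Jak1 and Tyk2 then act on transcription factors such as Stat2, which joins Irf9 to bind interferon-stimulated response elements in the promoters of target genes. The products sense foreign nucleic acid, degrade RNA, block viral entry or budding, or tune the signal itself, and T cells carry the receptor and respond. Many of the same genes also answer to interferon-gamma, which T cells make themselves and which acts on a different element.

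Library totals ranged from 1473216 to 3019551 counts. Pdcd1, the gene of the sorted marker, stood at 696 and 499 CPM at 10 days and 317 and 269 at 5 days in PD-1+ cells, against 1.3 and 1.95 CPM at 10 days and 1.62 and 0.568 at 5 days in PD-1- cells. The 11 T cell markers summed to 6663 to 10614 CPM (counts scaled to library size, with TMM factors) in PD-1+ and 6788 to 7750 CPM in PD-1- libraries. Foxp3 had 0 to 2 counts in PD-1+ and 10 to 32 counts in PD-1- libraries, and the CD8 T cell genes Cd8a and Cd8b1 summed to 6.18 to 27.4 CPM in PD-1+ and 27.5 to 47.6 CPM in PD-1- libraries. Both 5-day libraries numbered 3 had Y-linked counts and 1 to 5 counts of Xist, while the other 6 had at least 698 counts of Xist and 0 Y-linked counts. Sex and age were therefore partly mixed.

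Many members share letters in their promoters, which the choice of the list did not use. RefSeq promoter windows on GRCm38.p6, the build of the counts, ran from 250 bases before to 50 bases after each start site and were found for 33 of the 44 genes. The core of the interferon-stimulated response element was searched as GAAA, any 2 bases and again GAAA on either strand. It stood in any window of 19 of the 33 genes (57.6%), against 3.99% of all 27025 genes counted in the same way. Counted by single windows, it stood in 3.44% of all 32851. A list of further interferon-stimulated genes had it in 21 of 52 (40.4%). The longer form, in which CT follows the core, was found in 8 members (24.2%), against 0.303% of all genes. TTCNNNGAA, the form of the element for interferon-gamma, was found in 6 members (18.2%), against 9.55% of all genes. A match describes the letters of a window and does not show that a factor binds there. The windows of 5 HIN-200 genes on chromosome 1 are compared because these neighbours were all lower in PD-1+ cells at 5 days. Isg15, Ifit1 and Slfn8 show the element in other arrangements, and Isg20 is a member without it that was higher in PD-1+ cells. Letters run 5′ to 3′ on the gene's strand, positions count back from the start site, and capitals mark the core or its reverse complement, or TTCNNNGAA in Isg20.
Ifi206 (chr1:173491319-173491418, minus strand, from -100 to -1): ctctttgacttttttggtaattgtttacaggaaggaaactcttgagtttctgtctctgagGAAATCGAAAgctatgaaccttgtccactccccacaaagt
Ifi208 (chr1:173673565-173673664, plus strand, from -100 to -1): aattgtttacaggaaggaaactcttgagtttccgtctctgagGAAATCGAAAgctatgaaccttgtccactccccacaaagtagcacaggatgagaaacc
Ifi213 (chr1:173599273-173599372, minus strand, from -100 to -1): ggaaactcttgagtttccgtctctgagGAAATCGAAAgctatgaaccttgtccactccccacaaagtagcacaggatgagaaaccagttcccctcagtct
Ifi214 (chr1:173535958-173536057, minus strand, from -100 to -1): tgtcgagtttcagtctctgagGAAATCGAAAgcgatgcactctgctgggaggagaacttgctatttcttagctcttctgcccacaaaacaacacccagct
Ifi209 (chr1:173630759-173630858, plus strand, from -100 to -1): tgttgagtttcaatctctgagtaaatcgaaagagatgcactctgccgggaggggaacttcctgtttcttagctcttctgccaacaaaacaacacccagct
Isg15 (chr4:156200819-156200918, minus strand, from -100 to -1): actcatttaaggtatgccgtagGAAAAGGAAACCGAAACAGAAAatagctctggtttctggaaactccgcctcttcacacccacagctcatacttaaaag
Ifit1 (chr19:34640769-34640868, plus strand, from -120 to -21): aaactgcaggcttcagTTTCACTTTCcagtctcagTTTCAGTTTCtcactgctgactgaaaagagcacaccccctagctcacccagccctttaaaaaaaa
Slfn8 (chr11:83020811-83020910, minus strand, from -100 to -1): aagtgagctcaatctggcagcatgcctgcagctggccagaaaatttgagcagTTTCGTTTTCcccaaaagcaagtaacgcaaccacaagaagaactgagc
Isg20 (chr7:78913324-78913423, plus strand, from -100 to -1): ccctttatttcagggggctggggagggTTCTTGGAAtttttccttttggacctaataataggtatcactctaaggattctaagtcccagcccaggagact

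In the HIN-200 windows the element had the letters GAAATCGAAA in 5 of 6 genes, namely Ifi203, Ifi206, Ifi208, Ifi213 and Ifi214. The nearest match in Ifi209, 79 bases before its start site, was TAAATCGAAA, which differs by the substitution G1T counted from the first base of the element. These genes have similar upstream sequence: the longest identical run before the start site was 182 bases between Ifi206 and Ifi208, 135 bases between Ifi213 and either of them and 109 bases between Ifi209 and Ifi214, against 10 bases between Ifi208 and Ifi209. Isg15 holds 3 overlapping copies of the core, and Ifit1 and Slfn8 hold it in the reverse orientation within the longer form.

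A single library stood apart before any comparison. PD-1- 5-day replicate 2 had the highest level of all 8 libraries for 32 of the 40 tested genes. Among the 4 PD-1- libraries it was the highest for 37 of them. The 42 kept genes summed to 3893 and 3134 CPM at 10 days and 3820 and 2918 CPM at 5 days in PD-1+ cells, against 3564 and 3014 CPM at 10 days and 8172 and 4449 CPM at 5 days in PD-1- cells. Its companion, replicate 3, lay above both 10-day PD-1- libraries in 26 of the 40 genes, and the median ratio of replicate 2 to replicate 3 was 1.87. Relative to each gene's mean over the 8 libraries, the median of the members was 1.24 on the log2 scale in PD-1- 5-day replicate 2 and 0.16 in replicate 3, against -0.70 to -0.04 in the other 6 libraries. The same median over all tested genes was -0.01 to 0.03 in every library. Replicate 2 was also the deepest library. Below, a 5-day difference that lost its call or moved by over 1.5 times without it is also given without it or as its range over the omissions of single libraries.

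**Figure D1:**
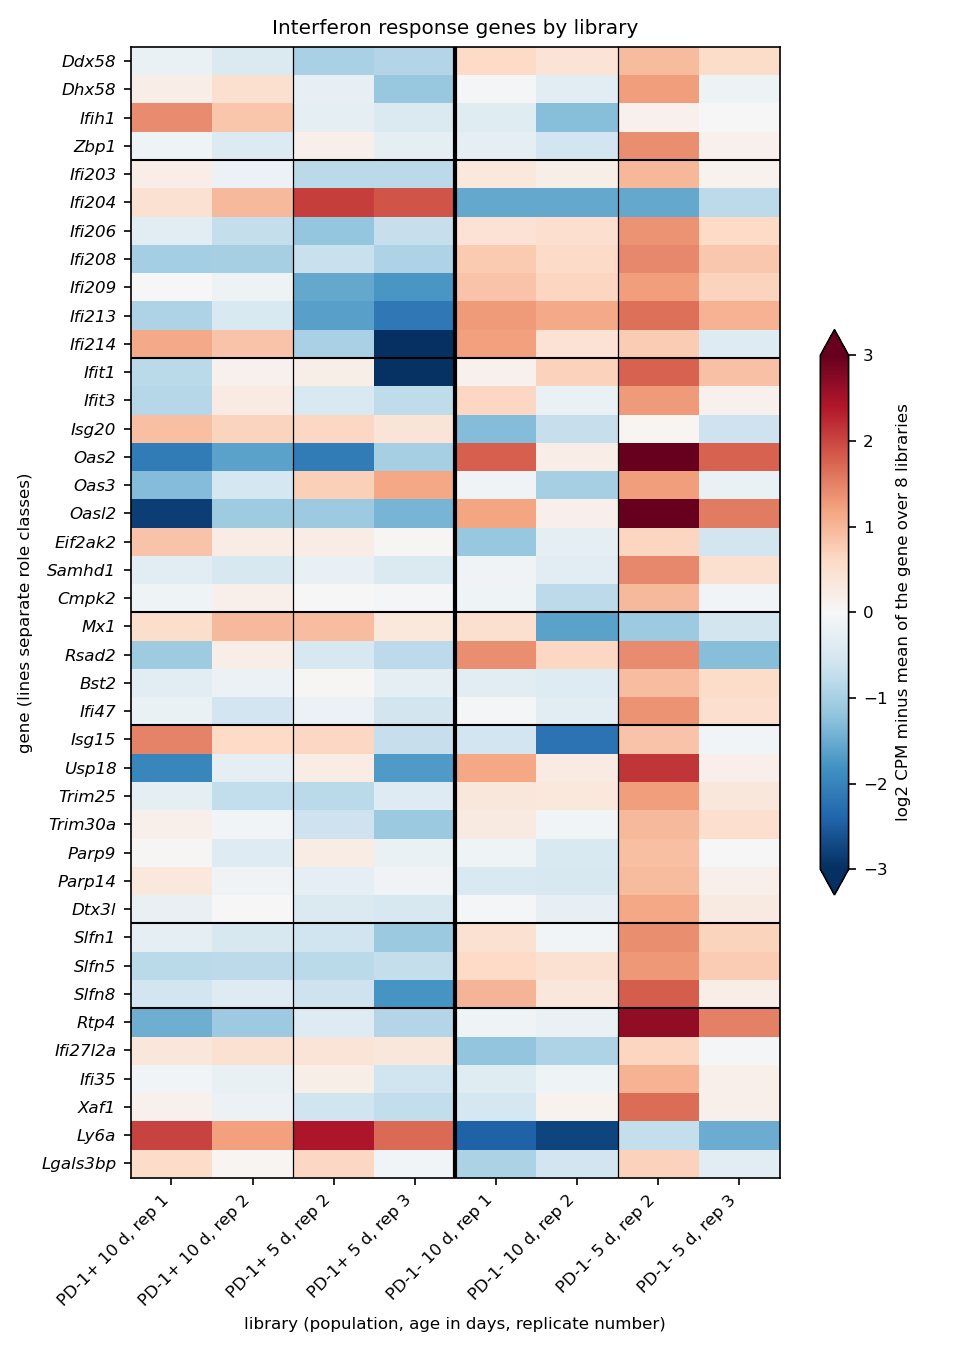
Level of each of the 40 tested interferon response genes (rows, grouped by role) in each library (columns, PD-1+ left of PD-1-), as log2 CPM with a prior count of 2 minus the gene's mean over the 8 libraries. The column of PD-1- 5-day replicate 2 is the highest for 32 of 40 genes, while Ifi204, Isg20 and Ly6a are higher in all PD-1+ than in all PD-1- libraries.

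In PD-1+ cells of 10-day-old mice about as many interferon response genes were higher as lower than in PD-1- cells, whereas in 5-day-old mice most of those called were lower. At 10 days 7 of 40 were higher and 9 lower (edgeR's quasi-likelihood test with Benjamini-Hochberg adjustment over all genes, called at an adjusted p below 0.05). Of all 11490 tested genes, 16.4% were higher and 12.9% lower in that comparison. The median log2 difference of the members was -0.13, against 0.01 for all tested genes. At 5 days 2 were higher and 23 lower, with 17.6% of all tested genes higher and 16.7% lower, and the medians were -1.44 and -0.03. Over both ages together 3 were higher, namely Ifi204, Isg20 and Ly6a, and 15 lower, where 21.9% of all tested genes were higher and 19.6% lower, and the medians were -0.79 and -0.01. Ifi204 had 53 of its 54 counts in PD-1+ libraries, and Oas2, among the lower, 149 of 152 in PD-1- libraries. Both passed the filters on low counts only through the population where they were high, so their directions here are description and not support. The libraries of the populations did not overlap for 12 genes that were lower and 3 that were higher in PD-1+ cells, while 25 overlapped. By that measure 17.5% of all tested genes were lower and 17.2% higher.

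Without PD-1- 5-day replicate 2, the median of the members was -0.76 at 5 days and -0.38 over both ages. Other single libraries also moved the medians. Each omission leaves 1 library in a group, and fewer of all tested genes were then called in the population comparisons that use that group. Whether the loss of calls was particular to the members was not tested. The 10-day median was -0.0026 without PD-1- 10-day replicate 1, -0.05 without PD-1+ 10-day replicate 2 and -0.29 without PD-1- 10-day replicate 2. Without PD-1+ 5-day replicate 3, the median was -1.25 at 5 days and -0.54 over both ages. Of the calls made with all libraries, 8 of 16 at 10 days, 14 of 25 at 5 days and 13 of 18 over both ages held whichever single library was left out. The plot of PD-1 differences by age shows each gene at both ages. Reads were 25 bases long and several members are near copies of one another, so the counts of Ifit3, Ifi204, Ifi206, Ifi208, Ifi209, Ifi213, Slfn8 and Ly6a, each with more than 30% of its 25-base stretches in another gene, are uncertain between such copies. In what follows, differences are log2 fold changes of PD-1+ over PD-1- cells with their standard errors, from 2 libraries a group. Counts of called genes by class or promoter element belong beside the share of all tested genes given for the same comparison.

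**Figure D2:**
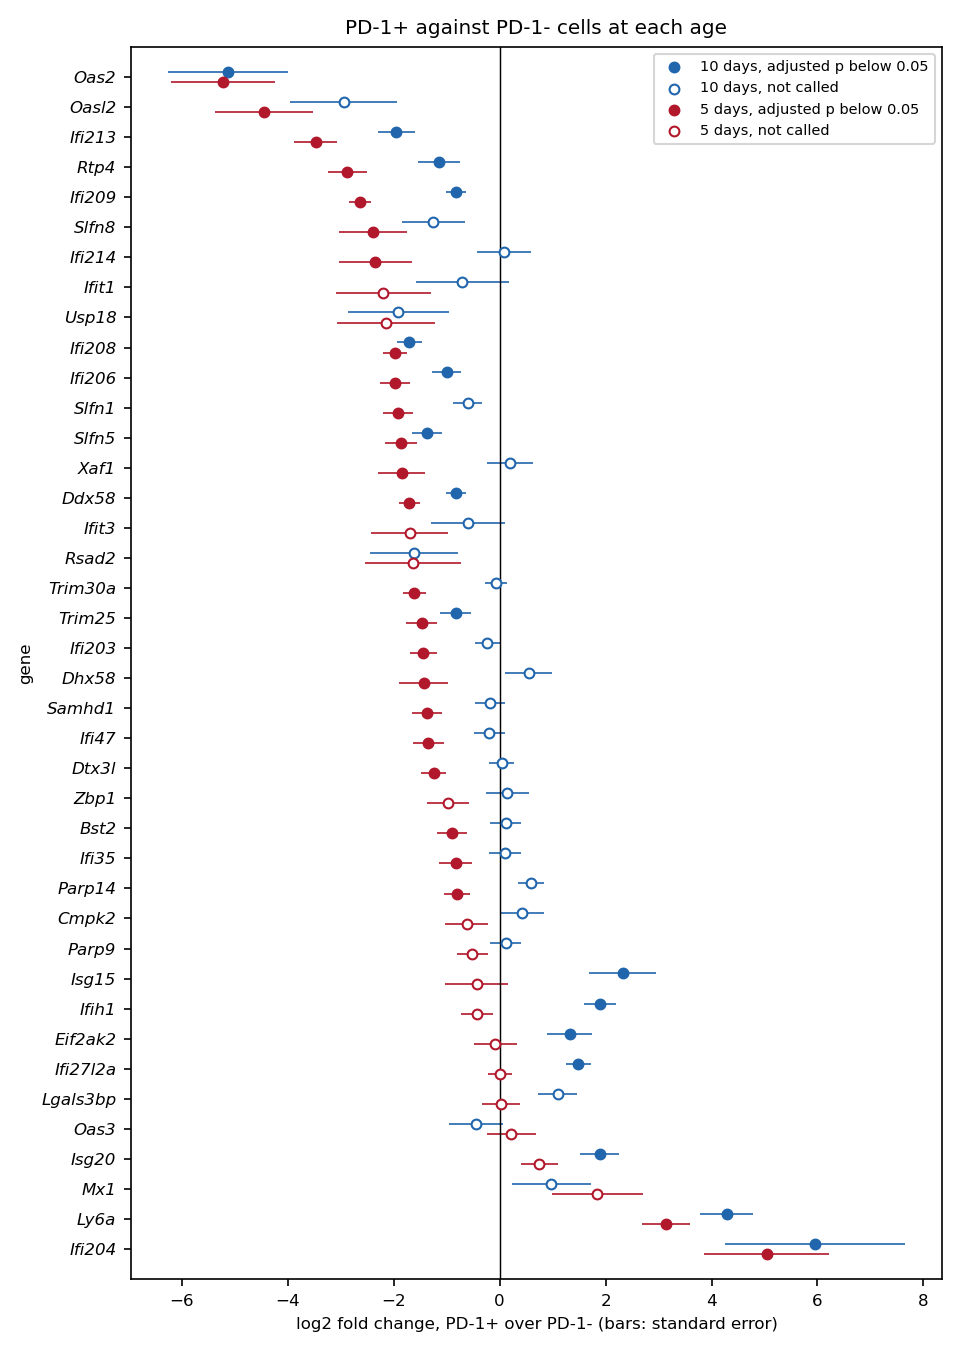
Log2 fold change of PD-1+ over PD-1- cells for each of the 40 tested genes (rows, ordered by the 5-day value) at 10 days (blue) and 5 days (red), with standard errors as bars; filled points passed an adjusted p of 0.05. At 5 days 23 filled points lie left of 0 and 2 right of it, and at 10 days 9 lie left and 7 right.

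Of the 4 sensors of foreign nucleic acid, 1 was higher and 1 lower at 10 days and 2 were lower at 5 days in PD-1+ cells. Ddx58 encodes the RNA helicase RIG-I and lies on chromosome 4 from 40203773 to 40239828 (GRCm38, GENCODE M21, as for all positions below). It measured 90.8 and 77.7 CPM at 10 days and 52.5 and 56.3 at 5 days in PD-1+ cells, against 159 and 139 CPM at 10 days and 202 and 153 at 5 days in PD-1- cells. Every PD-1+ library lay below every PD-1- library, and the log2 difference was -0.82 ± 0.19 at 10 days (adjusted p = 0.00328) and -1.71 ± 0.20 at 5 days (edgeR adjusted p = 5.45e-06). Ifih1, on chromosome 2 from 62595798 to 62646255, encodes MDA5, the sensor of long double-stranded RNA. Its level was 115 and 76.3 CPM at 10 days and 34.5 and 31 at 5 days in PD-1+ cells, against 32.7 and 16.9 CPM at 10 days and 46 and 42 at 5 days in PD-1- cells. Both 10-day PD-1+ libraries exceeded the other 6, the difference between the populations was 1.89 ± 0.30 at 10 days (adjusted p = 0.000159), and at 5 days it was -0.43 ± 0.30 and not called. Dhx58, the related helicase LGP2 that regulates both, measured 19.2 and 23.5 CPM at 10 days and 13.9 and 7.16 at 5 days in PD-1+ cells, against 15.9 and 13 CPM at 10 days and 40.5 and 14.8 at 5 days in PD-1- cells. At 5 days it was lower, with a difference of -1.44 ± 0.47 (adjusted p = 0.0259), but the call ended without PD-1+ 5-day replicate 3 and without PD-1- 5-day replicate 2, where the difference was -0.49. Zbp1, a sensor of left-handed nucleic acid that triggers cell death, differed by 0.15 ± 0.40 at 10 days and -0.97 ± 0.39 at 5 days and was not called. Its 5-day PD-1- libraries, at 282 and 116 CPM, were far apart.

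HIN-200 genes, whose products bind DNA or regulate transcription, were mostly lower in PD-1+ cells. At 10 days 1 of 7 was higher and 4 were lower, and at 5 days 1 was higher and 6 lower. The genes lie side by side on chromosome 1 between 173468485 and 173942672, a stretch of 474.2 kb. Their summed level was 385 and 331 CPM at 10 days and 203 and 190.5 CPM at 5 days in PD-1+ cells, against 664 and 586 CPM at 10 days and 975 and 601 CPM at 5 days in PD-1- cells. Summed over the class, no PD-1+ library reached the lowest PD-1- library.

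Ifi208 measured 37.8 and 38.7 CPM at 10 days and 48.4 and 40.6 at 5 days in PD-1+ cells, against 133 and 115 CPM at 10 days and 213 and 136 at 5 days in PD-1- cells. The populations did not overlap at either age, and the difference was -1.70 ± 0.23 at 10 days (adjusted p = 2.77e-05) and -1.98 ± 0.23 at 5 days (edgeR adjusted p = 5.76e-06). Ifi213 had 8.9 and 12.7 CPM at 10 days and 5.15 and 3.34 at 5 days in PD-1+ cells, against 43.7 and 39.7 CPM at 10 days and 57 and 36.9 at 5 days in PD-1- cells. Its difference of -3.47 ± 0.40 at 5 days (adjusted p = 5.76e-06) was the largest of the lower HIN-200 genes, and at 10 days it was -1.95 ± 0.34 (adjusted p = 0.000386). Ifi206 measured 40.2 and 30.6 CPM at 10 days and 22.1 and 31 at 5 days in PD-1+ cells, against 69 and 72.8 CPM at 10 days and 131 and 77.8 at 5 days in PD-1- cells. The difference was -0.999 ± 0.28 at 10 days (adjusted p = 0.0116) and -1.98 ± 0.29 at 5 days (adjusted p = 5.82e-05). The 10-day call of Ifi206 ended without PD-1+ 10-day replicate 2 or either PD-1- 10-day library, with log2 differences of -1.20 to -0.80 over the 8 omissions.

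Ifi209, the gene with the altered element, had 138 and 122 CPM at 10 days and 46.3 and 40.1 at 5 days in PD-1+ cells, against 247 and 212 CPM at 10 days and 323 and 215 at 5 days in PD-1- cells. No libraries of the populations overlapped, and the 10-day PD-1+ libraries lay well above the 5-day ones. The difference was -0.82 ± 0.19 at 10 days (adjusted p = 0.00365) and -2.64 ± 0.21 at 5 days (edgeR adjusted p = 9.66e-08), and the 10-day call ended without PD-1- 10-day replicate 1. Ifi214 had 22.8 and 18.6 CPM at 10 days and 4.63 and 0.477 at 5 days in PD-1+ cells, against 24.3 and 13.7 CPM at 10 days and 17.5 and 7.38 at 5 days in PD-1- cells. At 5 days it was lower, with a difference of -2.35 ± 0.69 (adjusted p = 0.0172), a call that ended without PD-1+ 5-day replicate 3 or PD-1- 5-day replicate 2, with differences of -4.58 to -1.44. At 10 days it differed by 0.09 ± 0.51 and was not called. The annotated span of Ifi203 overlaps that of Mndal on the same strand. Ifi203 measured 135 and 104 CPM at 10 days and 66.9 and 66.8 at 5 days in PD-1+ cells, against 147 and 133 CPM at 10 days and 234 and 127 at 5 days in PD-1- cells. At 5 days it was lower, with a difference of -1.44 ± 0.25 (adjusted p = 0.000585), or -0.92 without PD-1- 5-day replicate 2, while at 10 days the difference was -0.23 ± 0.24 and not called.

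Ifi204, a DNA sensor best known from macrophages, went the other way. It had 7 and 11 counts at 10 days and 18 and 17 at 5 days in PD-1+ cells, against 0 and 0 counts at 10 days and 0 and 1 at 5 days in PD-1- cells. Over both ages 53 counts in PD-1+ and 1 count in PD-1- libraries gave a ratio of 46.9 in library-scaled counts (95% exact binomial interval 8.05 to 1885, counting error only). Without PD-1- 5-day replicate 2, which had 0 counts of Ifi204, the ratio was 31.2 (interval 5.36 to 1255). At 10 days, with 18 counts in PD-1+ and 0 in PD-1- cells, the lower limit of the 95% exact binomial interval of the ratio was 3.36. The edgeR adjusted p was 0.0147 at 10 days and 0.00376 at 5 days. The 10-day call ended without PD-1+ 10-day replicate 2 or either PD-1- 10-day library, with fitted log2 values of 5.58 to 6.20, and the 5-day call without PD-1- 5-day replicate 2, with 3.81 to 7.44. With 41% of its 25-base stretches in other genes, mostly Ifi211, how many of these counts come from Ifi204 itself was not tested.

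Among the genes acting on RNA or nucleotides, 2 of 9 were higher and 1 lower at 10 days and 3 were lower at 5 days in PD-1+ cells. The 2′-5′ oligoadenylate synthetase genes, whose products activate an RNA-degrading nuclease, differed among themselves. Oas2, on chromosome 5 from 120730333 to 120749853, had 0 and 1 counts at 10 days and 0 and 2 at 5 days in PD-1+ cells, against 36 and 5 counts at 10 days and 88 and 20 at 5 days in PD-1- cells. That is 3 counts in PD-1+ against 149 in PD-1- libraries, or 56.2-fold lower in library-scaled counts (95% exact binomial interval 18.9 to 275, counting error only), with an edgeR adjusted p of 0.00286 at 10 days and 0.000738 at 5 days. PD-1- 5-day replicate 2 held 88 of the 149 counts, and without it Oas2 was 34.5-fold lower (interval 11.3 to 172). The 10-day call ended without PD-1- 10-day replicate 1, with fitted log2 values of -7.23 to -3.83 over the omissions. Oasl2, a related RNA-binding protein on chromosome 5 from 114896936 to 114912234, had 0.356 and 3.16 CPM at 10 days and 3.09 and 2.39 at 5 days in PD-1+ cells, against 18.1 and 8.46 CPM at 10 days and 95.3 and 23.8 at 5 days in PD-1- cells. At 10 days it differed by -2.94 ± 1.01 and was not called, and at 5 days it was lower, by a log2 difference of -4.45 ± 0.92 (adjusted p = 0.00848). Without either 5-day PD-1+ library the 5-day call ended, with differences of -5.09 to -3.10. Oas3 was not called between the populations (-0.07 ± 0.34 over both ages) but differed with age, as described below. Oasl1 had 1 count in PD-1+ and 21 in PD-1- libraries, or 23.8-fold lower (95% exact binomial interval 3.82 to 982). It was kept only through its PD-1- counts, so the limit favours this direction and the ratio is a description only. Of those 21 counts 13 came from PD-1- 5-day replicate 2, and without it the counts were 1 and 8, or 13.6-fold lower (interval 1.82 to 603). At 10 days alone Oasl1 had 1 count in PD-1+ and 3 in PD-1- cells, a ratio whose interval (0.315 to 206) includes no difference.

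Isg20, an exonuclease that degrades single-stranded RNA on chromosome 7 from 78913424 to 78920396, was higher in all PD-1+ libraries. It had 38.8 and 33 CPM at 10 days and 31.9 and 27.2 at 5 days in PD-1+ cells, against 7.77 and 12.4 CPM at 10 days and 21.4 and 13.1 at 5 days in PD-1- cells. The difference over both ages was 1.29 ± 0.29 (edgeR adjusted p = 0.00268), from 1.89 ± 0.37 at 10 days (adjusted p = 0.000918) and 0.74 ± 0.35 at 5 days, which was not called. Eif2ak2 encodes PKR, the kinase that stops translation on double-stranded RNA. It had 45.2 and 28.8 CPM at 10 days and 28.8 and 25.3 at 5 days in PD-1+ cells, against 10.7 and 20.2 CPM at 10 days and 39.2 and 16.5 at 5 days in PD-1- cells. At 10 days it was higher by 1.32 ± 0.43 (adjusted p = 0.0304), a call that ended without replicate 1 of either 10-day population, with differences of 0.88 to 1.79. At 5 days the 2 PD-1+ libraries lay between the 2 PD-1- libraries.

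Samhd1, the hydrolase that depletes the nucleotides viruses need, was the most abundant member of this class. It had 535 and 481 CPM at 10 days and 575 and 502 at 5 days in PD-1+ cells, against 621 and 537 CPM at 10 days and 1835 and 934 at 5 days in PD-1- cells. The PD-1+ libraries lay within a narrow range at both ages, whereas the 5-day PD-1- libraries were high and far apart. At 10 days Samhd1 differed by -0.19 ± 0.28 and was not called, and at 5 days it was lower, by a log2 difference of -1.36 ± 0.29 (edgeR adjusted p = 0.00806). The 5-day call ended without either 5-day PD-1+ library, and without PD-1- 5-day replicate 2 the difference was -0.79. Ifit1 and Ifit3, which bind viral RNA at its cap or triphosphate end, differed by -2.20 ± 0.90 and -1.70 ± 0.73 at 5 days and were not called. Their range was 1.43 to 19 CPM in PD-1+ against 18.5 to 59.6 CPM in PD-1- libraries for Ifit1, and 2.14 to 5.62 CPM in PD-1+ against 3.9 to 12.3 CPM in PD-1- libraries for Ifit3. Ifit3b, a near copy of Ifit3, had 4 counts in PD-1+ against 20 in PD-1- libraries, or 5.66-fold lower (95% exact binomial interval 1.89 to 22.8). Ifit3b too was kept only through its PD-1- counts, so this ratio is a description only. Cmpk2, a mitochondrial nucleotide kinase, differed by 0.42 ± 0.42 at 10 days and -0.62 ± 0.40 at 5 days and was not called.

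The membrane, GTPase and capsid effectors showed 0 of 4 called at 10 days and 2 of 4 lower at 5 days in edgeR's test. At an unadjusted p below 0.05, 0 of the 4 passed at 10 days, where 21.5% of all tested genes were higher and 17.8% lower, and at 5 days 1 was higher and 2 lower, where 22.1% of all tested genes were higher and 21.9% lower. Ifi47, an immunity-related GTPase on chromosome 11 from 49076587 to 49096974, measured 514 and 397 CPM at 10 days and 518 and 402 at 5 days in PD-1+ cells, against 578 and 463 CPM at 10 days and 1509 and 831 at 5 days in PD-1- cells. It was lower at 5 days, with a difference of -1.35 ± 0.29 (edgeR adjusted p = 0.0103). The call ended without PD-1+ 5-day replicate 3, and without PD-1- 5-day replicate 2 the difference was -0.85. Bst2 encodes tetherin, which holds budding virus at the cell surface, and had 24.9 and 27.8 CPM at 10 days and 32.4 and 25.8 at 5 days in PD-1+ cells, against 24.6 and 24.1 CPM at 10 days and 60.9 and 46.6 at 5 days in PD-1- cells. It was lower at 5 days, with a difference of -0.89 ± 0.28 (adjusted p = 0.0211), with differences of -1.06 to -0.68 over the omissions and no call without either 5-day PD-1+ library or without PD-1- 5-day replicate 2. Rsad2 encodes viperin, which makes a chain-terminating nucleotide. It had 4 and 13 counts at 10 days and 5 and 4 at 5 days in PD-1+ cells, against 36 and 10 counts at 10 days and 37 and 2 at 5 days in PD-1- cells. Over both ages it was lower, with a difference of -1.62 ± 0.61 (adjusted p = 0.0461), but 6 of the 8 omissions ended that call, all except those of PD-1+ 10-day replicate 2 and PD-1- 5-day replicate 3, with differences of -2.01 to -0.96. Mx1, a GTPase that blocks influenza, had 16 and 23 counts at 10 days and 15 and 10 at 5 days in PD-1+ cells, against 17 and 1 counts at 10 days and 4 and 4 at 5 days in PD-1- cells, with a difference of 1.36 ± 0.58 over both ages that was not called.

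Of the 7 genes of the ubiquitin, ISG15 and ADP-ribose class, 1 was higher and 1 lower at 10 days and 4 were lower at 5 days. Trim25, the ubiquitin ligase that activates RIG-I, lies on chromosome 11 from 88999376 to 89020293. It had 55.2 and 40.1 CPM at 10 days and 38.1 and 51.6 at 5 days in PD-1+ cells, against 85.2 and 84.6 CPM at 10 days and 162 and 85.2 at 5 days in PD-1- cells. No libraries of the populations overlapped, and the difference was -0.83 ± 0.29 at 10 days (adjusted p = 0.042) and -1.48 ± 0.29 at 5 days (edgeR adjusted p = 0.00136). The 10-day call ended without PD-1+ 10-day replicate 2 or either PD-1- 10-day library, with differences of -1.08 to -0.61, and the 5-day difference was -0.92 without PD-1- 5-day replicate 2. Trim30a, a negative regulator of Toll-like receptor signalling, measured 130.4 and 111 CPM at 10 days and 76.7 and 53.9 at 5 days in PD-1+ cells, against 142 and 111 CPM at 10 days and 230.4 and 166 at 5 days in PD-1- cells. It was lower at 5 days, with a difference of -1.61 ± 0.22 (adjusted p = 3.92e-05), and at 10 days the difference was -0.07 ± 0.21 and not called.

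Isg15 encodes the ubiquitin-like protein that is conjugated to other proteins during the interferon response. It had 26.7 and 14.1 CPM at 10 days and 14.4 and 5.25 at 5 days in PD-1+ cells, against 5.83 and 1.3 CPM at 10 days and 17.2 and 8.52 at 5 days in PD-1- cells. At 10 days it was higher in PD-1+ cells by 2.32 ± 0.64 (edgeR adjusted p = 0.0133), and at 5 days the libraries of the populations overlapped (-0.43 ± 0.60, not called). The 10-day call ended without PD-1+ 10-day replicate 1 or PD-1- 10-day replicate 2, with differences of 1.80 to 3.92. Usp18 removes Isg15 from proteins and blocks the receptor. It had 3 and 15 counts at 10 days and 15 and 3 at 5 days in PD-1+ cells, against 48 and 12 counts at 10 days and 97 and 13 at 5 days in PD-1- cells. Over both ages it was lower, with a difference of -2.02 ± 0.61 (adjusted p = 0.0194), a call that ended without PD-1+ 5-day replicate 3, PD-1- 5-day replicate 2 or PD-1- 10-day replicate 1, with differences of -2.49 to -1.45.

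Parp14, a transferase of ADP-ribose, measured 114 and 84.7 CPM at 10 days and 75.7 and 84.5 at 5 days in PD-1+ cells, against 66.4 and 65.7 CPM at 10 days and 176 and 102 at 5 days in PD-1- cells. At 10 days it differed by 0.59 ± 0.24 and was not called, and at 5 days it was lower, by a log2 difference of -0.81 ± 0.24 (edgeR adjusted p = 0.017). Without either 5-day PD-1+ library, or without PD-1- 5-day replicate 2, the 5-day call ended, with differences of -1.12 to -0.35. Dtx3l, the ubiquitin ligase that partners Parp9, had 145 and 165 CPM at 10 days and 125 and 121 at 5 days in PD-1+ cells, against 159.7 and 142 CPM at 10 days and 377 and 203 at 5 days in PD-1- cells. It was lower at 5 days, with a difference of -1.25 ± 0.24 (adjusted p = 0.0014), or -0.72 without PD-1- 5-day replicate 2, while Parp9 differed by -0.52 ± 0.29 and was not called. Parp9 and Dtx3l overlap on opposite strands of chromosome 16, and with the strand setting of the counting not given in the sources used here, their shared reads cannot be told apart.

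Of the 3 Schlafen genes, regulators of T cell quiescence and of translation, 1 was lower at 10 days and all 3 at 5 days in PD-1+ cells. They lie on chromosome 11 between 82951349 and 83122670. Slfn1, which keeps thymocytes and T cells from dividing when overexpressed, measured 178 and 155 CPM at 10 days and 143 and 99.8 at 5 days in PD-1+ cells, against 298 and 205 CPM at 10 days and 567 and 345 at 5 days in PD-1- cells. Every PD-1+ library was below every PD-1- library, and the difference was -0.61 ± 0.27 at 10 days, where it was not called, and -1.92 ± 0.28 at 5 days (edgeR adjusted p = 0.000656). Slfn5 had 16.4 and 16.9 CPM at 10 days and 16.5 and 17.7 at 5 days in PD-1+ cells, against 45 and 41 CPM at 10 days and 73.2 and 50.5 at 5 days in PD-1- cells. The PD-1+ values were nearly the same in all libraries, and the difference was -1.37 ± 0.29 at 10 days (adjusted p = 0.00181) and -1.86 ± 0.30 at 5 days (adjusted p = 0.00013). Slfn8, with 34.4% of its 25-base stretches in other genes, mostly Slfn9, had 26 and 29.9 CPM at 10 days and 25.2 and 11 at 5 days in PD-1+ cells, against 81.3 and 50.1 CPM at 10 days and 140.3 and 45.4 at 5 days in PD-1- cells. Its libraries did not overlap either. The 5-day difference of -2.39 ± 0.64 (adjusted p = 0.0293) lost its call without any 1 of the 4 PD-1+ libraries, with differences of -3.06 to -1.33, the smallest being that without PD-1- 5-day replicate 2.

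Among the 6 tested other induced genes, 2 were higher and 1 lower at 10 days and 1 was higher and 3 lower at 5 days. Ly6a, the surface antigen Sca-1 that activated T cells carry, lies on chromosome 15 from 74994877 to 74998031. It measured 815 and 471 CPM at 10 days and 1076 and 645 at 5 days in PD-1+ cells, against 36.3 and 28.6 CPM at 10 days and 122 and 69.8 at 5 days in PD-1- cells. Every PD-1+ library was above every PD-1- library, by 4.28 ± 0.50 at 10 days (edgeR adjusted p = 0.00202) and 3.15 ± 0.46 at 5 days (adjusted p = 0.00435). Ly6a shares 23.7% of its 25-base stretches with Ly6c1. Per kilobase of exon it was the highest member in PD-1+ cells, at 624 CPM per kb, and the next was Ifi27l2a at 226, whereas in PD-1- cells Ifi47 led at 342 CPM per kb and Ly6a stood at 53.2.

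Rtp4, a chaperone that dampens the interferon response, had 9.62 and 12.7 CPM at 10 days and 21.1 and 14.8 at 5 days in PD-1+ cells, against 25.3 and 24.1 CPM at 10 days and 180.5 and 80.6 at 5 days in PD-1- cells. The 5-day PD-1- libraries stood far above the rest, and the difference was -1.15 ± 0.39 at 10 days (adjusted p = 0.0392) and -2.88 ± 0.36 at 5 days (edgeR adjusted p = 3.2e-05). The 10-day call ended without any of the 4 10-day libraries, with differences of -1.35 to -0.96. Ifi27l2a, a small mitochondrial protein on chromosome 12 from 103442167 to 103443680, measured 102 and 110.3 CPM at 10 days and 104 and 102 at 5 days in PD-1+ cells, against 35 and 41.6 CPM at 10 days and 126 and 77.8 at 5 days in PD-1- cells. Its PD-1+ levels were nearly the same at both ages, its 10-day PD-1- levels were the lowest, and it was higher in PD-1+ cells at 10 days by 1.48 ± 0.24 (adjusted p = 0.000158). Ifi35, a partner of Nmi, and Xaf1, a promoter of cell death, were lower at 5 days, with a difference of -0.83 ± 0.30 and -1.85 ± 0.44 (adjusted p = 0.0484 and 0.00677). Both calls ended without PD-1- 5-day replicate 2, where the differences were -0.30 and -0.85. The call of Xaf1 also ended without either 5-day PD-1+ library, and that of Ifi35 without any library except PD-1+ 5-day replicate 2 and PD-1- 5-day replicate 3. Lgals3bp, a secreted glycoprotein, had 116 and 82.9 CPM at 10 days and 122 and 75 at 5 days in PD-1+ cells, against 40.8 and 53.3 CPM at 10 days and 128 and 62.5 at 5 days in PD-1- cells, with a difference of 1.10 ± 0.37 at 10 days that was not called.

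**Figure D3:**
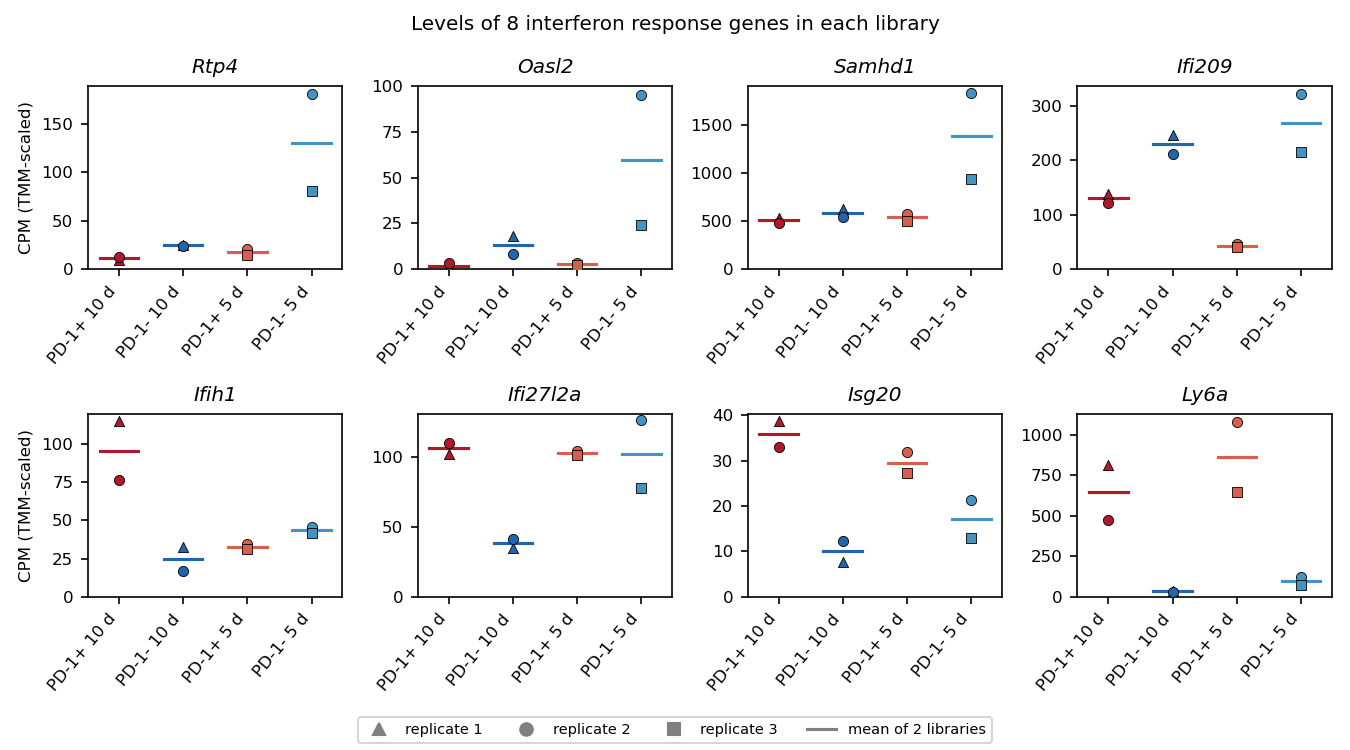
CPM (TMM-scaled) of 8 interferon response genes in each library, by population and age; points are libraries, shapes give the replicate number and lines the mean of the 2 libraries. Rtp4, Oasl2 and Samhd1 are highest in PD-1- 5-day replicate 2, Ifih1 is highest in 10-day PD-1+ cells, and Isg20 and Ly6a are higher in all PD-1+ libraries.

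The same libraries were compared between the ages within each population. In PD-1- cells 37 of 40 genes had a negative difference of 10 against 5 days, with a median of -0.94, against -0.01 for all tested genes. Only 2 of them, Rtp4 and Ifi27l2a, were called lower and 0 higher, in a comparison where 0.122% of all tested genes were lower and 0.148% higher, and DESeq2 called 7 lower and 0 higher, with an adjusted p for 34 of the 40. At an unadjusted p below 0.05, 25 members were lower and 0 higher, where 6% of all tested genes were lower and 4.61% higher. Rtp4 had 25.3 and 24.1 CPM at 10 days, against 180.5 and 80.6 CPM at 5 days in PD-1- cells (-2.41 ± 0.35, edgeR adjusted p = 0.00979). For Ifi27l2a the values were 35 and 41.6 CPM at 10 days, against 126 and 77.8 CPM at 5 days in PD-1- cells (-1.44 ± 0.24, adjusted p = 0.0126). Both calls ended without either 10-day PD-1- library, and that of Ifi27l2a also without PD-1- 5-day replicate 2, with differences of -2.85 to -1.70 and -1.72 to -1.04. The libraries of the ages did not overlap for 25 members that were lower and 0 that were higher at 10 days, where 20.7% of all tested genes were lower and 19.2% higher by that measure. Without PD-1- 5-day replicate 2 the median was -0.39, and without PD-1- 5-day replicate 3 it was -1.31. It was -1.31 without both 5-day libraries numbered 3, -1.09 without PD-1- 10-day replicate 1 and -0.83 without PD-1- 10-day replicate 2.

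In PD-1+ cells 6 genes were higher and 1 lower at 10 than at 5 days, where 7.39% of all tested genes were higher and 6.98% lower, and the median was 0.21, against 0.05 for all tested genes. Ifi209 measured 138 and 122 CPM at 10 days, against 46.3 and 40.1 CPM at 5 days in PD-1+ cells (1.59 ± 0.21, edgeR adjusted p = 0.000117). Ifih1 stood at 115 and 76.3 CPM at 10 days, against 34.5 and 31 CPM at 5 days (1.55 ± 0.30, adjusted p = 0.00255). Both held their calls in all 8 omissions. The other 4 that were higher were Ifi214 (3.03 ± 0.67), Trim30a (0.89 ± 0.22), Ifi203 (0.84 ± 0.25) and Ddx58 (0.63 ± 0.20), with adjusted p from 0.00786 to 0.0433. Oas3 was the 1 that was lower, at 10.3 and 18.3 CPM at 10 days, against 44.8 and 60.6 CPM at 5 days in PD-1+ cells (-1.88 ± 0.50, adjusted p = 0.031). These 5 calls ended without PD-1+ 5-day replicate 3. Those of Trim30a, Oas3, Ifi203 and Ddx58 also ended without PD-1+ 10-day replicate 1, those of Oas3, Ifi203 and Ddx58 without PD-1+ 5-day replicate 2, those of Ifi203 and Ddx58 without either 10-day PD-1- library, and that of Ddx58 without PD-1+ 10-day replicate 2. The differences over the omissions were 2.13 to 5.28 for Ifi214, 0.64 to 1.14 for Trim30a, 0.64 to 1.01 for Ifi203, 0.51 to 0.74 for Ddx58 and -2.35 to -1.53 for Oas3. The median was 0.20 without PD-1+ 10-day replicate 1, 0.08 without PD-1+ 10-day replicate 2 and 0.15 without PD-1+ 5-day replicate 3. The libraries of the ages did not overlap for 14 members that were higher and 4 that were lower at 10 days, where 31.3% of all tested genes were higher and 27.2% lower.

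Over both populations together 2 genes, Oas3 (-1.54 ± 0.35, edgeR adjusted p = 0.0295) and Rtp4 (-1.67 ± 0.40, adjusted p = 0.0431), were lower and 0 were higher at 10 than at 5 days, with 2.58% of all tested genes lower and 2.3% higher. The median of the members was -0.34, and 0.03 without PD-1- 5-day replicate 2. The call of Oas3 held only without PD-1- 5-day replicate 3 or PD-1- 10-day replicate 1, and that of Rtp4 ended without PD-1+ 5-day replicate 2, PD-1+ 10-day replicate 1 or either 10-day PD-1- library, with differences of -1.85 to -1.29 and -1.92 to -1.17.

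The difference between PD-1+ and PD-1- cells itself differed between 10 and 5 days for 5 of 40 genes, all in the positive direction, where 1.2% of all tested genes were called positive and 0.923% negative. The term was positive for 38 of 40 genes, with a median of 1.14, against 0.04 for all tested genes. It was 2.32 ± 0.43 for Ifih1 (edgeR adjusted p = 0.00903), 1.82 ± 0.28 for Ifi209 (adjusted p = 0.00282), 1.54 ± 0.31 for Trim30a (adjusted p = 0.0159), 1.48 ± 0.33 for Ifi27l2a (adjusted p = 0.0265) and 1.39 ± 0.34 for Parp14 (adjusted p = 0.0471). Ifi209 held this call in all 8 omissions, and Ifih1 in all except that of PD-1+ 5-day replicate 3, with 1.97 to 2.93. The calls of Trim30a, Ifi27l2a and Parp14 ended without PD-1+ 5-day replicate 3, PD-1- 5-day replicate 2 or PD-1- 10-day replicate 2. In addition, those of Trim30a and Parp14 ended without PD-1+ 10-day replicate 1, and those of Ifi27l2a and Parp14 without PD-1+ 5-day replicate 2 or PD-1- 10-day replicate 1. Over the omissions the term was 1.27 to 1.78, 1.08 to 1.76 and 0.94 to 1.70 for these genes. DESeq2 called 9 positive and 0 negative, with an adjusted p for 36 of the 40. With same-numbered libraries taken as pairs, 14 were positive and 0 negative, where 263 of all 11490 tested genes were positive and 220 negative. Without PD-1- 5-day replicate 2 the median of the term was 0.66, and without PD-1- 5-day replicate 3 it was 1.55. It was 1.09 without PD-1+ 10-day replicate 1 and 1.34 without PD-1- 10-day replicate 1. It was 0.99 without PD-1+ 5-day replicate 3 and 1.07 without PD-1- 10-day replicate 2. Omitting both 5-day libraries numbered 3 leaves libraries with Xist counts only and 1 library for each population at 5 days. The median was then 1.37. This term, the 5-day comparison and the age comparison in PD-1- cells all use the same 5-day PD-1- libraries, so they are not separate evidence.

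**Figure D4:**
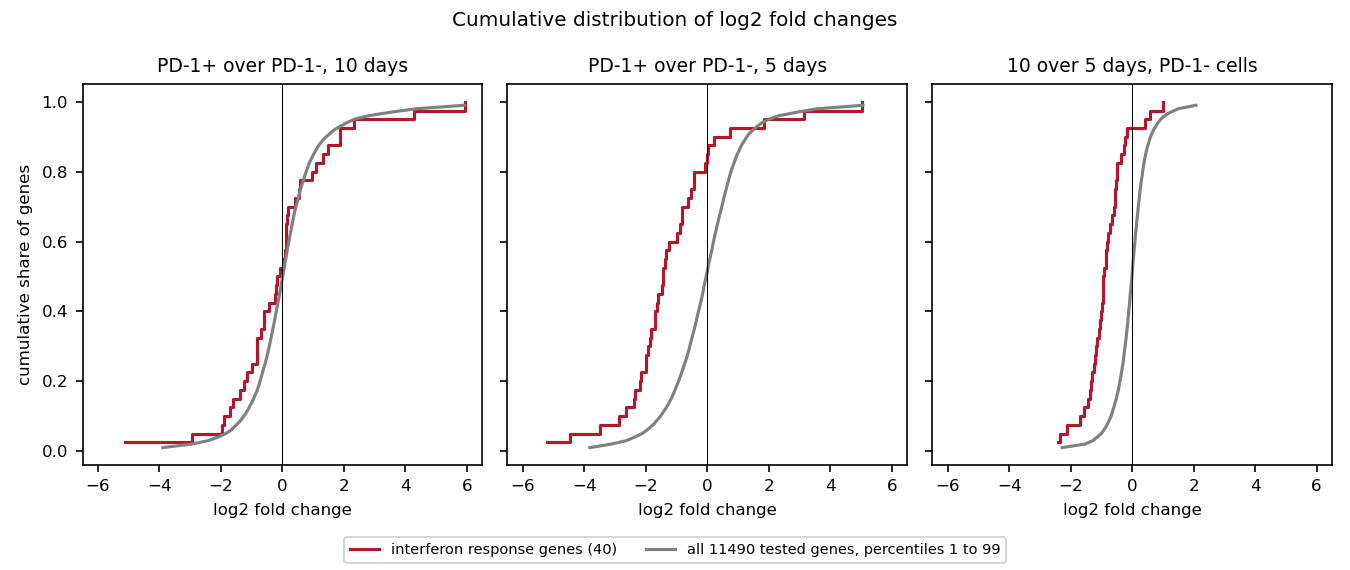
Cumulative share of genes (vertical axis) against log2 fold change (horizontal axis) for the 40 tested interferon response genes (red steps) and all 11490 tested genes (grey line), for PD-1+ over PD-1- cells at 10 days and at 5 days and for 10 over 5 days in PD-1- cells. The red line lies left of the grey at 5 days (medians -1.44 and -0.03) and in PD-1- cells (medians -0.94 and -0.01), and near it at 10 days (medians -0.13 and 0.01).

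The differences were also set beside the promoter letters of the matched members. At 5 days the 17 tested members with the core element had a median of -1.70, 10 of them lower and 0 higher in PD-1+ cells, and the 12 without it had a median of -1.36, 9 of them lower and 0 higher. If PD-1- 5-day replicate 2 was left out, the 5-day median was -1.33 for the 17 with the element and -0.82 for the 12 lacking it. At 10 against 5 days in PD-1+ cells, 5 of the 17 with it were higher and 1 lower (median 0.50), and 1 of the 12 without it was higher (median 0.07). Isg20, whose printed window holds TTCTTGGAA, was the 1 member without the core that was higher over both ages. Of the 6 members with TTCNNNGAA, Samhd1 and Ifi35 also lack the core, and both were lower at 5 days (-1.36 and -0.83). Without PD-1- 5-day replicate 2 their differences were -0.79 and -0.30. These are descriptions of the matched members, and no test was made of them.

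The genes of the type I ligands were nearly silent in the sorted cells, whereas that of interferon-gamma was not. The 18 type I interferon genes had 6 counts in PD-1+ and 3 counts in PD-1- libraries in all, 12 of them had 0 counts in every library, and none was tested. Ifng, the gene of interferon-gamma, measured 524 and 302 CPM at 10 days and 500.3 and 633 at 5 days in PD-1+ cells, against 5.18 and 1.95 CPM at 10 days and 0 and 3.97 at 5 days in PD-1- cells. It was higher by 6.66 ± 0.74 at 10 days and 8.53 ± 0.85 at 5 days (edgeR adjusted p = 0.00244 and 0.00145). The chains of the type I receptor did not pass the test: Ifnar1 differed by -0.09 ± 0.15 and Ifnar2 by 0.15 ± 0.17 over both ages. Of the 5 tested receptor genes, 1 was higher over both ages and 1 lower, where 21.9% of all tested genes were higher and 19.6% lower. Il10rb, a shared chain of interferon-lambda and interleukin-10 receptors, was higher (1.43 ± 0.22). Ifngr2, the signalling chain of the interferon-gamma receptor, was lower (-4.80 ± 0.38). Ifngr1, its ligand-binding chain, differed by 0.20 ± 0.15 and was not called.

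Downstream of the receptor, 5 of 12 signalling genes were higher and 2 lower at 10 days, and 4 were higher and 5 lower at 5 days. Of all tested genes, 16.4% were higher and 12.9% lower at 10 days, and 17.6% and 16.7% at 5 days. Stat2, which joins Irf9 in the complex that binds the response element, measured 57.7 and 52 CPM at 10 days and 39.1 and 35.3 at 5 days in PD-1+ cells, against 60.9 and 66.3 CPM at 10 days and 242 and 95.4 at 5 days in PD-1- cells. As with the members, the 5-day PD-1- libraries were high and apart from each other. At 10 days Stat2 differed by -0.21 ± 0.36 and Irf9 by -0.15 ± 0.20, and neither was called. At 5 days both were lower, Stat2 with a difference of -2.19 ± 0.38 (edgeR adjusted p = 0.00148), or -1.35 without PD-1- 5-day replicate 2, and Irf9 with one of -1.20 ± 0.21 (adjusted p = 0.000336). Irf7, the factor that amplifies interferon production, had 47.4 and 50.3 CPM at 10 days and 55.6 and 28.2 at 5 days in PD-1+ cells, against 82.6 and 63.1 CPM at 10 days and 199 and 90.3 at 5 days in PD-1- cells, and was lower at 5 days, with a difference of -1.81 ± 0.42 (adjusted p = 0.0104), or -1.11 without PD-1- 5-day replicate 2. The kinase genes differed in direction: over both ages Tyk2 was higher (0.94 ± 0.16) and Jak1 lower (-0.83 ± 0.12). Ptpn11, the phosphatase Shp2 that PD-1 recruits, was higher by 2.02 ± 0.29, and Pias1, a SUMO ligase, was lower, with a difference of -0.92 ± 0.14. The induction pathway upstream of the ligands had 3 of 11 tested genes higher and 3 lower over both ages. Of all tested genes, 21.9% were higher and 19.6% lower in that comparison. Among the called genes of this list were Irf5 (2.27 ± 0.28), Myd88 (0.67 ± 0.16) and Ikbke (-1.86 ± 0.16).

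A further 51 tested interferon-stimulated genes outside the 44 gave 10 higher and 8 lower at 10 days (median 0.10) and 6 higher and 24 lower at 5 days (median -0.54). Beside these stand 16.4% higher and 12.9% lower of all tested genes at 10 days, and 17.6% and 16.7% at 5 days. In PD-1- cells 44 of the 51 had a negative difference of 10 against 5 days, and 2 were called lower. Of all tested genes, 0.122% were lower in that comparison. Among those higher in PD-1+ cells over both ages were Cxcl10, the chemokine that draws Cxcr3-bearing cells (4.68 ± 0.42), Apobec3, a deaminase that restricts retroviruses (1.80 ± 0.13), and Ly6e (0.96 ± 0.14), while Ms4a6b was lower (-1.42 ± 0.13). The genes Ifitm1, Ifitm2 and Ifitm3, whose products hinder viral entry and which were singled out after their values were seen, were higher at 5 days by 6.18 ± 0.79, 4.71 ± 0.68 and 4.08 ± 0.48 and were not called at 10 days. Ifitm1 had 1.78 and 0 CPM at 10 days and 352 and 148 at 5 days in PD-1+ cells, against 5.18 and 1.3 CPM at 10 days and 2.27 and 5.11 at 5 days in PD-1- cells. With PD-1- 5-day replicate 2 left out, the 5-day median of this list was -0.38, and 33 of its 50 tested genes had a negative age difference in PD-1- cells.

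Genes known chiefly as targets of interferon-gamma were counted in the same way. Of 22 tested, 8 were higher and 0 lower at 10 days (median 0.92), and 3 were higher and 8 lower at 5 days (median -0.83). Among all tested genes the shares were 16.4% higher and 12.9% lower at 10 days, and 17.6% and 16.7% at 5 days. In PD-1- cells all 22 had a negative difference of 10 against 5 days (median -1.73), 4 of them called. Of all tested genes, 0.122% were called lower there. When PD-1- 5-day replicate 2 was left out, the 5-day median was -0.17, and all 22 still had a negative age difference in PD-1- cells (median -0.87). Gbp5, a GTPase that breaks open vacuoles of pathogens, had 60.5 and 28.8 CPM at 10 days and 52 and 43.9 at 5 days in PD-1+ cells, against 3.56 and 1.3 CPM at 10 days and 27.2 and 15.3 at 5 days in PD-1- cells. It was higher by 4.01 ± 0.51 at 10 days and 1.14 ± 0.39 at 5 days (edgeR adjusted p = 2.77e-05 and 0.0354). Irf8, a transcription factor of the same family as Irf9, was higher by 3.40 ± 0.20 over both ages, and the immunoproteasome subunit Psmb8 by 1.21 ± 0.15. Tgtp1, a GTPase first found in T cells, was lower, with a difference of -1.98 ± 0.38. This list and the 44 genes were drawn up with earlier results of these libraries known, and many genes answer to both kinds of interferon.

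Markers of other cells differed between the populations and are given here as measured. The 9 hepatocyte genes, all with counts, summed to 34.4 to 89 CPM in PD-1+ and 11.4 to 20.4 CPM in PD-1- libraries. Alb gave 332 of their 792 counts. The 8 genes of conventional dendritic cells, all with counts, summed to 37.7 to 91.2 CPM in PD-1+ and 10.7 to 27.3 CPM in PD-1- libraries. Xcr1 gave 337 of their 834 counts and was higher at 5 days by 5.59 ± 0.65. Zbtb46, Itgax, H2-Aa and H2-Ab1 differed at 5 days by 0.12, 0.44, 0.38 and 0.04 and were not called. The opposite held for 3 lists, each with counts for all genes. The 7 B cell genes summed to 292 to 356 CPM in PD-1+ and 546 to 641 CPM in PD-1- libraries, with 7909 of 8608 counts from Ighm. The 8 endothelial and stromal genes summed to 103 to 145 CPM in PD-1+ and 300 to 380.1 CPM in PD-1- libraries, with 4241 of 4337 counts from Pecam1. The 8 erythroid genes summed to 2.81 to 5.34 CPM in PD-1+ and 11.1 to 29.8 CPM in PD-1- libraries, with 173 of 241 counts from Gata1. Genes of plasmacytoid dendritic cells, the main makers of type I interferon, summed over 8 genes to 37.1 to 75.9 CPM in PD-1+ and 84.9 to 116 CPM in PD-1- libraries, mostly Pacsin1, with Klk1 at 0 throughout. Siglech, their defining marker, had 1 count in 1 PD-1+ library (10-day replicate 2), 34 counts in 1 PD-1- library (10-day replicate 1) and 0 elsewhere, also in PD-1- 5-day replicate 2, where the members were highest. The 5 genes of gamma-delta T cells, all with counts, summed to 28.1 to 46.3 CPM in PD-1+ and 7.13 to 24.7 CPM in PD-1- libraries. The 6 NK cell genes, with Klra4 at 0 throughout, summed to 6.69 to 33.8 CPM in PD-1+ and 1.62 to 32.4 CPM in PD-1- libraries, and the 8 neutrophil genes, all with counts, to 2.06 to 5.7 CPM in PD-1+ and 1.14 to 2.59 CPM in PD-1- libraries. PD-1- 5-day replicate 2 was the highest PD-1- library for the hepatocyte, erythroid, endothelial, CD8 T cell and neutrophil genes. It was the lowest PD-1- library for the genes of plasmacytoid and conventional dendritic cells, B cells, T cells, gamma-delta T cells and NK cells and for Foxp3. The 10 macrophage and Kupffer cell genes, all with counts, summed to 41.2 to 54.8 CPM in PD-1+ and 31.4 to 79.5 CPM in PD-1- libraries, the lowest PD-1- value being that of 5-day replicate 2. The part of these cells in the differences of the interferon response genes was not tested.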

How the data were processed

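RNA was measured in 8 libraries of 1000 sorted liver CD4+ T cells each, 2 for each combination of PD-1 sort and age. Per the labels' protocols, polyadenylated RNA was primed with oligo(dT), amplified, tagmented and sequenced as paired reads of 25 bases. The authors deposited 1 table of raw counts per gene symbol. Per the submitters' processing notes, STAR 2.5.4 and featureCounts were used with mm10. The sources used here do not give the annotation, the strand setting or the treatment of multiply mapped reads. Of the table's columns, 0 were left unmatched. Total counts per library were 2843311 and 2791009 in PD-1+ cells at 10 days, 2215852 and 2365447 in PD-1+ cells at 5 days, 2832550 and 1473216 in PD-1- cells at 10 days and 3019551 and 1706991 in PD-1- cells at 5 days. Replicates differed by more than sampling noise, with a chi-square per degree of freedom from 4 to 8.61.

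Counts were fitted with edgeR 4.0.16 (R 4.3.3, limma 3.58.1): filterByExpr by the 4 groups left 11490 genes, libraries were scaled by TMM, and the robust quasi-likelihood F test was adjusted by Benjamini-Hochberg over all of them, with calls at an adjusted p below 0.05. Comparisons over both ages or both populations used an additive model of age and population, and the others a model of the 4 groups. Standard errors were derived from the fold change and its F statistic. A lone library left by an omission is assumed to vary like the other groups. CPM values are counts over the library's sum across the 11490 tested genes times its TMM factor. Ratios of few counts use full library totals without TMM factors. They carry exact binomial intervals, which cover counting error only. Gene positions and shared 25-base stretches come from GENCODE M21 and promoters from RefSeq, both on GRCm38. Alternatives were DESeq2 1.42.0, other scalings, no further filter on low counts, a replicate block and omission of each library. The code was tested on simulated counts.

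The members and lists were chosen with earlier results of these data known. Values per library were given for up to 4 members of each role with the smallest p over both ages, all members of small roles, those called against the direction of most members or in an age comparison, and a fixed set of pathway genes, of which 1 is not reported here. Outside the members, up to 4 genes per list were named by the same p.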

Additional observations from a re-analysis of the deposited data

Results flagged for a closer look

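For 5 interferon response genes and 2 genes of the pathway lists, the difference between PD-1+ and PD-1- cells itself differed between 10 and 5 days in edgeR's interaction test. The log2 term was 2.32 for Ifih1, 1.82 for Ifi209, 1.54 for Trim30a, 1.48 for Ifi27l2a and 1.39 for Parp14. It was 2.87 for Gbp5, a target of interferon-gamma, and 1.52 for Ptpn11, a phosphatase of the signalling list. Each value is positive, so PD-1+ cells stood higher relative to PD-1- cells at 10 than at 5 days. All 7 rest on the same 5-day PD-1- libraries. Without PD-1- 5-day replicate 2, the term was 2.36 for Gbp5 and 1.16 for Ptpn11, and neither was called.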

How the results depend on the processing

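The counts of called members depended on single libraries, whose depth of 1473216 to 3019551 counts and number of 2 a group limit every comparison. Each omission also changed how many of all tested genes were called. Over the 8 omissions, members called higher and lower numbered 3 to 6 and 11 to 18 over both ages, 5 to 9 and 4 to 12 at 10 days, 1 to 2 and 13 to 28 at 5 days, 0 to 1 and 0 to 3 with age in both populations, 2 to 7 and 0 to 1 with age in PD-1+ cells, and 0 and 0 to 14 with age in PD-1- cells, while 1 to 14 had a positive and 0 a negative interaction. The medians ranged from -0.96 to -0.38 over both ages, -0.29 to 0.00 at 10 days, -1.81 to -0.76 at 5 days, -0.53 to 0.03 with age in both populations, 0.08 to 0.39 in PD-1+ cells, -1.31 to -0.39 in PD-1- cells and 0.66 to 1.55 for the interaction. The median of the age difference over both populations changed sign, to 0.0335, without PD-1- 5-day replicate 2; the other medians kept theirs. Without replicate 3 of 5 days in both populations, the age median over both populations was -0.61, 15 members were lower with age in PD-1- cells and 11 had a positive interaction. DESeq2 called 1 higher and 4 lower with age in both populations, 7 lower with age in PD-1- cells, and 9 with a positive interaction. Upper-quartile scaling, DESeq2's size factors and no further filter moved no count of called members by more than 1.5 times.

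Same-numbered PD-1+ and PD-1- libraries had deviations correlated at 0.114 at 10 days and 0.0938 at 5 days. With 2 libraries a group, the deviations within a group mirror each other, so these values cannot show whether the numbers are pairs. Both 5-day libraries numbered 3 had Y-linked counts, and both numbered 2 had 0. The labels name no animals, and the main comparisons did not treat the numbers as pairs. With the replicate block, 8 members were higher and 13 lower at 10 days, 2 higher and 27 lower at 5 days, 3 higher and 17 lower over both ages, and 14 had a positive interaction. Ages share no replicate blocks, so age differences have no blocked value.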
